A study of Mus musculus with 11 samples.

Results

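The comparison described here sets all 6 libraries from muscle that carried Cre (ZEB1_KO and ZEB2_KO) against all 5 libraries from floxed muscle without Cre (ZEB1_control and ZEB2_control), with the line as a covariate. Its members were grouped by genotype, with earlier results of these data known, and they make up 11 of the 11 libraries of the series. It gives the effect that the knockouts of both lines have in common, and the genes that moved the same way in both lines. Each library held gastrocnemius RNA pooled from 2 mice that had been fasted for 36 h. The ZEB1_KO group (3 libraries) was ZEB1 flx/flx with HSACre, against ZEB1 flx/flx without it in ZEB1_control (2 libraries, numbered 2 and 3), and the ZEB2_KO group (3 libraries) was ZEB2 flx/flx with HSACre, against ZEB2 flx/flx without it in ZEB2_control (3 libraries). HSACre is a recombinase under the skeletal actin promoter, active in myofibres, so fibroblasts, endothelium, nerve and immune cells of the muscle were not its target. All 11 pools were fasted and carried floxed alleles, and no group carried Cre without floxed alleles. An effect shared by both lines can therefore come with loss of either ZEB factor or with Cre itself, and these cannot be told apart here.

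Zeb1 and Zeb2 encode related transcription factors with zinc fingers that bind E-box sequences, and they are best known for repressing epithelial genes and for driving the mesenchymal state. In muscle, fasting activates FoxO factors and glucocorticoid signalling, which turn on ubiquitin ligases, the proteasome and autophagy, and so break down fibre protein. Around the fibres lie fibroblasts and tendon cells that make the matrix, Schwann cells that wrap the motor axons, and resident macrophages.

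Total counts ran from 27286288 to 46259639 per library. The muscle identity list (15 of 15 genes tested, none at 0 in any library) summed to between 122200 and 161900 CPM in the 6 knockout libraries and between 123900 and 147900 CPM in the 5 control libraries, so the defining markers of the labelled tissue were high in all of them. CPM here are counts scaled to library size with TMM factors, and p-values measure the spread between pools. Males, read from Y-linked genes and Xist, numbered 0, 0 and 2 per pool in ZEB1_KO, 0 and 1 in ZEB1_control, 1, 2 and 2 in ZEB2_KO and 1, 2 and 0 in ZEB2_control. The 2 ZEB1_control libraries differed widely from each other in wasting genes. Trim63, a muscle ubiquitin ligase also called MuRF1, stood at 4710, 925 and 2854 CPM in the ZEB1_KO libraries, against 770 CPM in ZEB1_control 2 and 4750 CPM in ZEB1_control 3.

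The targeted genes were lower in their own line only. Zeb1 had 28.4, 28.6 and 30.4 CPM in ZEB1_KO, against 41.2 and 51.1 CPM in ZEB1_control, and 67.2, 60.2 and 76.0 CPM in ZEB2_KO, against 47.7, 52.1 and 43.7 CPM in ZEB2_control. Its groups did not overlap within either line, but in opposite directions, so that the average over both lines was -0.03 on the log2 scale (standard error, SE, 0.20). Zeb2 had 21.8, 19.7 and 20.7 CPM in ZEB1_KO, against 20.8 and 18.7 CPM in ZEB1_control, and 18.3, 14.4 and 17.7 CPM in ZEB2_KO, against 24.1, 23.1 and 25.8 CPM in ZEB2_control. The difference between the effects of the lines on Zeb1 was -1.17 with an SE of 0.20 (edgeR quasi-likelihood test, unadjusted p = 0.000114, Benjamini-Hochberg adjusted p = 0.350).

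The promoters of 4 genes on which the results turn are shown, because ZEB factors bind the E-box CACCTG, or CAGGTG on the other strand. They are RefSeq windows of 300 bases on GRCm38.p6, from 250 bases before the RefSeq start of the gene to 50 bases after it. Krt18 was higher in the knockouts of both lines and Thbs4, Fmod and Myh2 were lower. The windows lie at chr15:102027966-102028265 on the plus strand for Krt18, chr13:92794769-92795068 on the minus strand for Thbs4, chr1:134037004-134037303 on the plus strand for Fmod and chr11:67170777-67171076 on the plus strand for Myh2. Capitals mark the E-box on either strand.
Krt18: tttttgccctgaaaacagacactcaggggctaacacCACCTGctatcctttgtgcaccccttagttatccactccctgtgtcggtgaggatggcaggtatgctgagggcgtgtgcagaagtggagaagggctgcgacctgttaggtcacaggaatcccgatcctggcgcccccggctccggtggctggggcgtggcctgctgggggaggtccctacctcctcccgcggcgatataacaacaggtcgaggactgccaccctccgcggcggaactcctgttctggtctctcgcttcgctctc
Thbs4: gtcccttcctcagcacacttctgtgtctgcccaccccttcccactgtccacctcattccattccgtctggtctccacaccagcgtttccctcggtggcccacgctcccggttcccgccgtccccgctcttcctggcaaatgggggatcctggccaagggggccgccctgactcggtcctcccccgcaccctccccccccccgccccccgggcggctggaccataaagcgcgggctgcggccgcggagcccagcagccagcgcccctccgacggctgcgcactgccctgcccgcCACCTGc
Fmod: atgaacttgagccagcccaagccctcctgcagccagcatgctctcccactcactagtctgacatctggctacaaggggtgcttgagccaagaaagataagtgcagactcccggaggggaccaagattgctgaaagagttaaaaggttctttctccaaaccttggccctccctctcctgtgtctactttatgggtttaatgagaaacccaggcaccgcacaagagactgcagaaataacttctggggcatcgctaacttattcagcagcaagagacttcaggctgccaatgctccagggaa
Myh2: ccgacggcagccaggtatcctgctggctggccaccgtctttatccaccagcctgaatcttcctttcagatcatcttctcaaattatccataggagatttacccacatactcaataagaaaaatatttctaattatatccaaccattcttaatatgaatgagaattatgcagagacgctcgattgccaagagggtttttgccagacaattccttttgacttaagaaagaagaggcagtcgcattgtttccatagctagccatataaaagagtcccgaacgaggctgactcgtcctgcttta
The window of Krt18 held 1 E-box, 214 bases before the RefSeq start, and that of Thbs4 held 1, 43 bases after it. For Krt18 the RefSeq start differs from the gene start given with its coordinates below. These letters do not occur in the windows of Fmod and Myh2. Among the 15 genes higher and the 15 genes lower with the smallest p, 11 and 13 had a RefSeq window, and 4 of the 11 (36.4%) and 4 of the 13 (30.8%) held the motif. Of 11179 tested genes with a window, 20.8% held it in at least 1 window. The other matches were in Kat8, Mrps18a and Mrto4 among the higher genes and in Igsf10, Adamts20 and Cyfip2 among the lower genes. A match describes these letters only.

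Across 15416 genes tested, the average effect of both knockouts was small, and no gene passed the edgeR test. The median size of the log2 fold change was 0.253 for the average effect, against 0.169 in the ZEB1 line and 0.385 in the ZEB2 line. The edgeR quasi-likelihood test with Benjamini-Hochberg adjustment called 0 of 15416 genes (0%), with a smallest adjusted p of 0.177, while 3440 genes (22.3%) had an unadjusted p under 0.05, 1500 higher (9.73%) and 1940 lower (12.6%). DESeq2 on the same model called 434 genes (2.82%), 169 higher (1.1%) and 265 lower (1.72%), and limma-voom called 0. Higher genes made up 43.6% of those with an unadjusted p under 0.05. This split depended on the scaling, being 48.3% with RLE factors, 26.5% with upper-quartile factors and 20.6% with library totals, which put the median log2 fold change of all genes at -0.109, against -0.013 with TMM.

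The lines contributed unequally. Of the 434 genes that DESeq2 called on average, 434 had the same sign in both lines, 415 had an unadjusted p under 0.05 in the ZEB2 line and 120 in the ZEB1 line. In each line alone edgeR called 0 genes, with an unadjusted p under 0.05 for 499 genes (3.24%) in the ZEB1 line, 253 higher (1.64%) and 246 lower (1.6%), and for 5113 (33.2%) in the ZEB2 line, 2453 higher (15.9%) and 2660 lower (17.3%). The share in the ZEB1 line was below the share that a threshold of 0.05 passes by chance. DESeq2 called 21 genes (0.136%) in the ZEB1 line and 2587 (16.8%) in the ZEB2 line. The test of the difference between the lines called 0 genes by edgeR, with 1427 (9.26%) at an unadjusted p under 0.05, and 17 by DESeq2 (0.11%).

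Of all genes tested, 9400 (61%) had the same sign in both lines. An unadjusted p under 0.05 in both lines was seen for 132 genes with the same sign (0.856%), 34 higher (0.221%) and 98 lower (0.636%), and for 30 genes with opposite signs (0.195%). In 641 genes (4.16%) the knockout and control values did not overlap within either line and were apart in the same direction, with 308 higher (2%) and 333 lower (2.16%). In 131 genes (0.85%) the separation went in opposite directions. In 283 genes (1.84%) all 6 knockout libraries lay beyond all 5 controls, 127 higher (0.824%) and 156 lower (1.01%). Within the ZEB1 line alone 13.9% of genes had no overlap, and within the ZEB2 line alone 43.4%. With so few libraries per group, many genes separate within a line by chance, and the share due to chance was not computed. Across the 15416 genes the log2 fold changes of the lines had a Spearman rho of 0.271 and a Pearson r of 0.172, which describes these libraries, since all genes come from the same 11 libraries and 1 scaling.

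This agreement between the lines depended on single libraries of the ZEB1 line. Without ZEB1_control 2 only 39.2% of genes had the same sign, 25 genes with an unadjusted p under 0.05 in both lines had the same sign against 204 with opposite signs, and rho was -0.28. Without ZEB1_control 3 the same sign was seen in 75.6%, in 342 such genes against 8, rho was 0.62, and edgeR called 2599 genes on average, 1504 higher and 1095 lower. Without ZEB1_KO 2 the counts were 514 against 39, and edgeR called 122 genes, 29 higher and 93 lower. Without ZEB1_KO 1 they were 75 against 37 and without ZEB1_KO 3 they were 84 against 24. Leaving out any 1 library of the ZEB2 line kept the share with the same sign between 60.2% and 61.7%. With 1 ZEB1 control left, its spread is assumed to be that of the other groups.

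**Figure D1:**
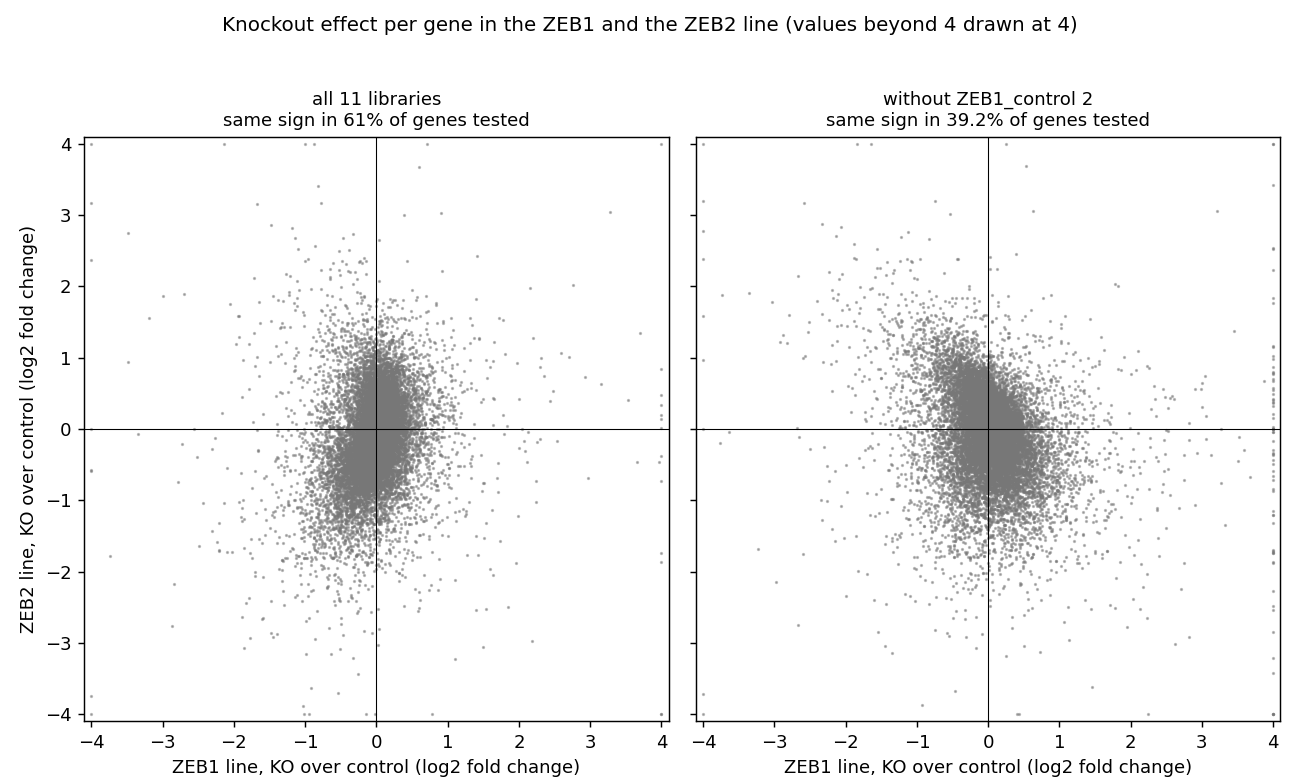
Each point is 1 gene, with its log2 fold change (KO over control) in the ZEB1 line on the horizontal axis and in the ZEB2 line on the vertical axis, from all 11 libraries (left) and without ZEB1_control 2 (right). Genes lie on the same side of 0 in both lines for 61% of genes at left and 39.2% at right, where the cloud tilts the other way.

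**Figure D2:**
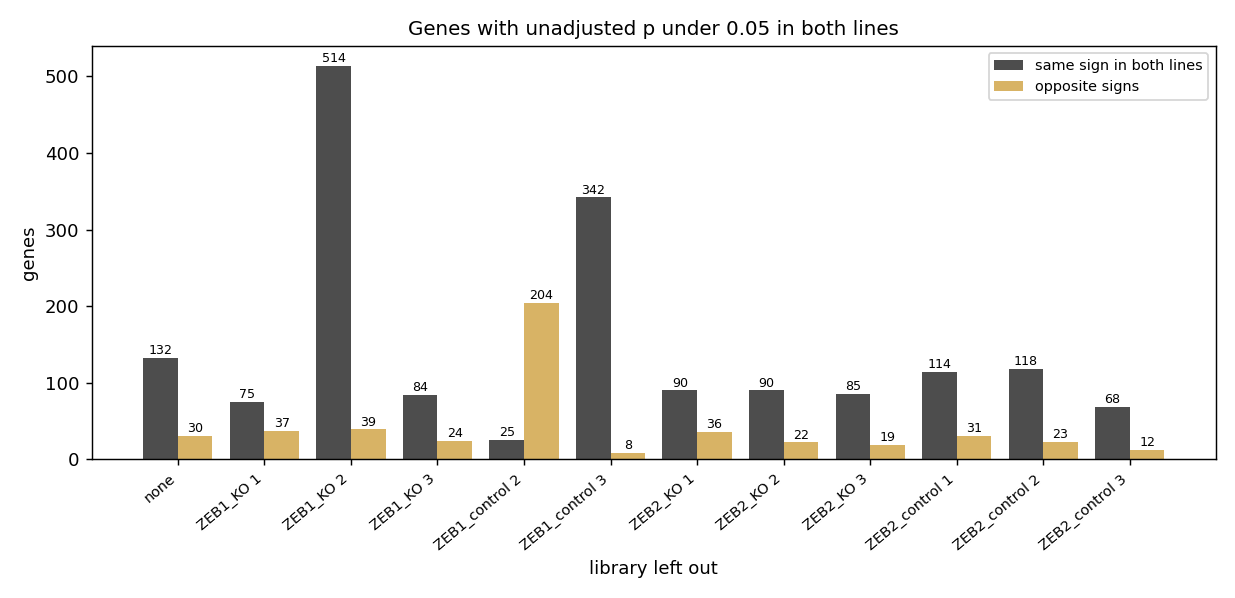
Bars count the genes with an unadjusted p under 0.05 in both lines that had the same sign (grey) or opposite signs (tan), for all libraries and with each library left out. Opposite signs outnumber same signs only without ZEB1_control 2 (25 against 204).

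Some genes kept the same sign in both lines whichever library was left out. Of 15083 genes tested in every such fit, 1523 (10.1%) were higher and 1817 (12%) lower in both lines in all 11 fits. The 30 genes with the smallest p in the average effect, 15 in each direction, were chosen among genes with the same sign in both lines, so that their agreement is part of the choice. All 30 had an edgeR adjusted p of 0.177, were called by DESeq2, and kept their sign in both lines in each of the 11 fits. The calls, the stable signs and the gaps between libraries described below follow in part from choosing small p in these libraries. They are no separate support. The effects of the lines differed at an unadjusted p under 0.05 for 0 of the 15 higher genes and for 2 of the 15 lower genes, Myh2 (0.0239) and Dach2 (0.0363). The effect was larger in the ZEB2 line for 11 of the 15 higher and 14 of the 15 lower genes.

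Among the 15 higher genes, the average log2 fold changes ran from 0.40 to 2.05. Cst6 (ENSMUSG00000024846.6, GRCm38 chromosome 19, 5344705 to 5349574, minus strand), which encodes cystatin E/M, a secreted inhibitor of cysteine proteases, had 27.7, 19.4 and 26.9 CPM in ZEB1_KO, against 15.09 and 16.02 CPM in ZEB1_control, and 25.4, 24.6 and 21.9 CPM in ZEB2_KO, against 14.91, 16.95 and 14.61 CPM in ZEB2_control. All 6 knockout libraries lay above all 5 controls, and they differed by 0.65 on the log2 scale (SE 0.11). The sizes in the lines were alike, at 0.67 (SE 0.17) in the ZEB1 line and 0.63 (SE 0.15) in the ZEB2 line. Vamp8 (ENSMUSG00000050732.9, chromosome 6, 72385223 to 72390703, minus strand), a SNARE protein of endosomes and lysosomes that also acts in autophagosome fusion, had 39.8, 39.0 and 37.2 CPM in ZEB1_KO, against 23.4 and 24.2 CPM in ZEB1_control, and 32.0, 31.7 and 28.7 CPM in ZEB2_KO, against 27.7, 21.8 and 21.7 CPM in ZEB2_control. Here too no knockout library overlapped a control, with an average log2 fold change of 0.52 and an SE of 0.10.

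Krt18 (ENSMUSG00000023043.7, chromosome 15, 102028180 to 102032027, plus strand), a keratin of simple epithelia, had the largest average change of the 15, 2.05 with an SE of 0.43, at a very low level. It stood at 1.79, 0.740 and 2.03 CPM in ZEB1_KO, against 0.263 and 0.420 CPM in ZEB1_control, and at 1.91, 2.05 and 2.39 CPM in ZEB2_KO, against 1.14, 0.193 and 0.269 CPM in ZEB2_control. The groups were apart within each line, but ZEB2_control 1 lay above ZEB1_KO 2. It is also 1 of the 34 epithelial genes listed as repressed by ZEB factors. Only 17 of the 34 were tested, since 17 had too few counts. Of these, 12 were higher and 5 lower on average, and 7 were higher in both lines, 5 lower in both and 5 opposite. In every fit 5 of 16 were higher and 3 lower in both lines, against 10.1% and 12% of all genes. The median log2 fold change of the list was 0.31 on average, 0.43 in the ZEB1 line and -0.07 in the ZEB2 line. Besides Krt18 DESeq2 called Jup, plakoglobin of desmosomes and adherens junctions (0.49, SE 0.14), against 1.1% of all genes called higher. At an unadjusted edgeR p under 0.05, 3 of the 17 were higher and 3 lower on average. Over all genes these shares were 9.73% and 12.6%. Cdh1, E-cadherin, the classic ZEB target, had an average of -0.70 (SE 0.38) at a mean of 0.563 CPM, and Krt19 -0.97 (SE 0.36).

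The other higher genes had changes below 1 on the log2 scale, except Hook2. Mrto4, an assembly factor of the large ribosomal subunit, had 21.1, 20.2 and 22.8 CPM in ZEB1_KO, against 17.3 and 17.1 CPM in ZEB1_control, and 22.8, 23.4 and 26.1 CPM in ZEB2_KO, against 17.7, 18.9 and 15.5 CPM in ZEB2_control. Its 6 knockout libraries lay above the 5 controls, as did those of Mrps18a, a protein of the mitochondrial ribosome (0.41, SE 0.09), Exosc5, a subunit of the RNA exosome (0.56, SE 0.12), Dhps, which makes the hypusine of the factor eIF5A (0.47, SE 0.11), Kat8, a histone acetyltransferase (0.70, SE 0.15), and Cdk18, a cyclin-dependent kinase (0.60, SE 0.14). At least 1 knockout library overlapped a control for Rnf126, a ubiquitin ligase (0.63, SE 0.12), Hook2, a microtubule adaptor (1.19, SE 0.24), Pstpip2, an actin-associated F-BAR protein (0.73, SE 0.17), Siva1, an apoptosis regulator (0.47, SE 0.11), Sim2, a transcription factor of the bHLH-PAS family (0.85, SE 0.20), and Wdfy1, an endosomal protein (0.71, SE 0.17). For Pstpip2 and Sim2 this overlap was within the ZEB1 line, and for the rest only between lines.

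Among the 15 lower genes, the average log2 fold changes ran from -0.45 to -1.88. Fmod (ENSMUSG00000041559.7, chromosome 1, 134037254 to 134048277, plus strand), which encodes fibromodulin, a proteoglycan of tendon that binds collagen fibrils, had 13.6, 23.9 and 19.8 CPM in ZEB1_KO, against 48.7 and 36.6 CPM in ZEB1_control, and 19.1, 25.1 and 19.4 CPM in ZEB2_KO, against 39.2, 55.2 and 82.7 CPM in ZEB2_control. The highest knockout library lay below the lowest control, and Fmod had the smallest p of these genes (edgeR quasi-likelihood test, log2 fold change -1.34, SE 0.21, unadjusted p = 3e-05, Benjamini-Hochberg adjusted p = 0.177). Thbs4 (ENSMUSG00000021702.7, chromosome 13, 92751590 to 92794818, minus strand), thrombospondin 4 of tendon and muscle attachment sites, had 26.1, 22.7 and 31.6 CPM in ZEB1_KO, against 46.5 and 55.3 CPM in ZEB1_control, and 32.3, 36.8 and 35.7 CPM in ZEB2_KO, against 41.5, 43.0 and 63.8 CPM in ZEB2_control. It too was apart in all 11 libraries, with a log2 fold change of -0.69 (SE 0.15). Lamb1, a laminin chain of basement membranes (-0.51, SE 0.10), Itgbl1, a secreted protein with integrin-like repeats (-0.70, SE 0.12), Igsf10 (-1.58, SE 0.29) and Adamts20, a secreted metalloproteinase (-1.11, SE 0.21), were also apart in all 11 libraries. P3h2, a prolyl hydroxylase of collagen (-1.02, SE 0.22), overlapped within the ZEB1 line.

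Myh2 (ENSMUSG00000033196.17, chromosome 11, 67171027 to 67197517, plus strand), the IIa myosin heavy chain of fast oxidative fibres, had 1329, 1655 and 1711 CPM in ZEB1_KO, against 2811 and 2048 CPM in ZEB1_control, and 871.1, 1290 and 731.4 CPM in ZEB2_KO, against 2237, 2732 and 3469 CPM in ZEB2_control. All knockout libraries were below all controls, with a log2 fold change of -0.63 (SE 0.25) in the ZEB1 line and -1.54 (SE 0.24) in the ZEB2 line. Myh13, a myosin best known from eye muscles, was likewise apart (-1.07, SE 0.21), although reads from myosin genes of similar sequence are shared out by estimation. Dach2, a nuclear factor tied to denervation signalling, was lower by -0.64 (SE 0.27) in the ZEB1 line and -1.53 (SE 0.25) in the ZEB2 line. Plk2 (ENSMUSG00000021701.8, chromosome 13, 110395046 to 110400844, plus strand), a polo-like kinase and a p53 target, had 8.70, 10.2 and 7.43 CPM in ZEB1_KO, against 11.7 and 12.4 CPM in ZEB1_control, and 9.973, 9.503 and 9.545 CPM in ZEB2_KO, against 16.9, 16.7 and 17.1 CPM in ZEB2_control. Its knockout values were all below its control values (-0.65, SE 0.11). The remaining lower genes were Slc5a3, the myo-inositol transporter (-0.90, SE 0.16), Pmp2, a myelin protein of Schwann cells (-1.88, SE 0.36), Wipf1, a partner of the actin regulator WASP (-0.45, SE 0.10), and Cyfip2, a WAVE complex subunit (-1.22, SE 0.23), the last with overlap between lines.

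**Figure D3:**
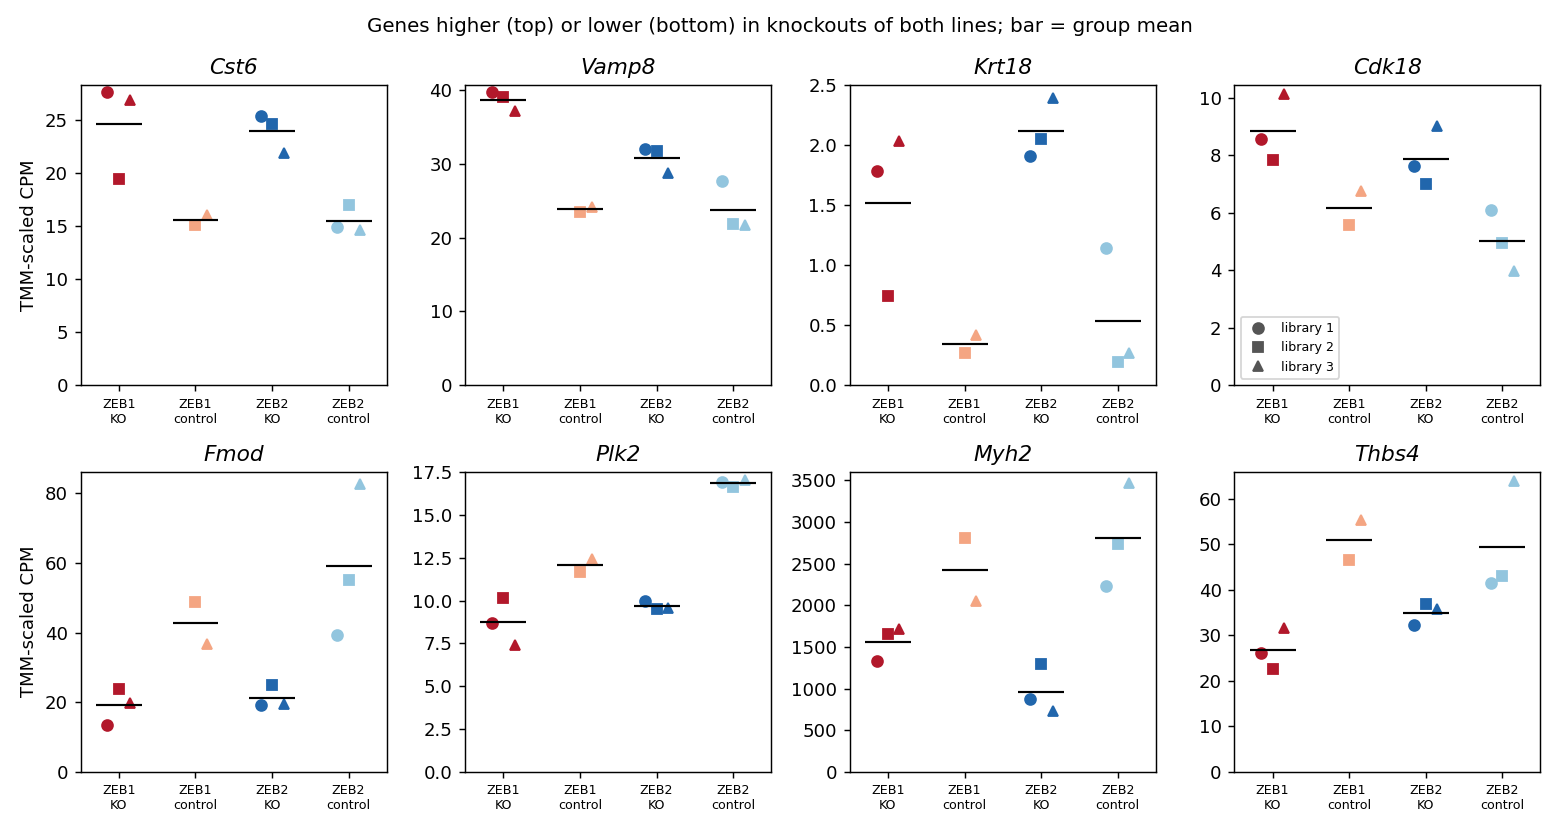
TMM-scaled CPM of 8 genes in each library, with KO left of control in each line, bars at group means and marker shapes for the library numbers. Cst6, Vamp8, Cdk18, Fmod, Plk2, Myh2 and Thbs4 have no overlap between 6 knockout and 5 control libraries, whereas Krt18 overlaps between ZEB1_KO 2 and ZEB2_control 1.

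Genes of tendon and connective tissue were lower in both lines. Whole muscle was sequenced, so fewer cells of a type and less RNA per cell cannot be told apart. All 13 tendon markers were lower on average and in each line, with a median log2 fold change of -1.34 on average, -0.93 in the ZEB1 line and -1.67 in the ZEB2 line, against -0.01, 0.01 and -0.05 over all genes tested. DESeq2 called 7 of the 13, Fmod, Thbs4, Kera, Cilp2, Comp, Chad and Tnmd, against 1.72% of all genes called lower, and edgeR 0. The ZEB1 median was -0.54 without ZEB1_control 2, where 3 of the 13 were higher in that line, and -1.36 without ZEB1_control 3. Kera, keratocan, had 0.195, 0.644 and 0.609 CPM in ZEB1_KO, against 2.46 and 0.979 CPM in ZEB1_control, and 0.597, 1.57 and 0.225 CPM in ZEB2_KO, against 1.55, 5.51 and 6.14 CPM in ZEB2_control. Its groups were apart in the ZEB1 line and overlapped in the ZEB2 line, where ZEB2_KO 2 lay above ZEB2_control 1. Of 12 tendon markers tested in every fit, 10 were lower in both lines whichever library was left out, against 12% of all genes. The summed tendon markers were 53.3, 71.1 and 73.7 CPM in ZEB1_KO, against 133.2 and 118.2 CPM in ZEB1_control, and 69.6, 91.4 and 80.2 CPM in ZEB2_KO, against 118.8, 151.4 and 219.4 CPM in ZEB2_control. No knockout library reached a control in this sum. Fmod and Thbs4 made up a large part of the sum and had been chosen by their small p in the same comparison. Its separation is therefore no separate support for the list.

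Fibroblast and matrix genes gave the same picture with smaller sizes. Of 20 fibroblast markers tested, 19 were lower on average, with medians of -0.47 on average, -0.43 in the ZEB1 line and -0.51 in the ZEB2 line. DESeq2 called 5, against 1.72% of all genes called lower, and 16 of the 20 were lower in both lines in every fit, against 12% of all genes. An unadjusted edgeR p under 0.05 was seen for 3 of the 20 in the ZEB1 line and 9 in the ZEB2 line. Over all genes these shares were 3.24% and 33.2%. The ZEB1 median was -0.67 without ZEB1_KO 2 and -0.32 without ZEB1_KO 3. Pi16, a marker of adventitial fibroblasts, had 23.3, 31.3 and 17.3 CPM in ZEB1_KO, against 49.2 and 31.2 CPM in ZEB1_control, and 18.9, 20 and 7.57 CPM in ZEB2_KO, against 28.8, 29.3 and 40.2 CPM in ZEB2_control. The Pi16 values overlapped within the ZEB1 line. Dcn, decorin, had a log2 fold change of -0.41 in the ZEB1 line and -0.04 in the ZEB2 line. Of 27 collagens 26 were lower (medians -0.81, -0.45 and -1.03 for the average, the ZEB1 line and the ZEB2 line), with 8 called lower by DESeq2, 0 by edgeR and 18 lower in both lines in every fit, to be read against the same 1.72% and 12%. The collagen median in the ZEB1 line was -0.26 without ZEB1_control 2 and -0.68 without ZEB1_KO 2. Col1a2, a chain of type I collagen, had 51.3, 94 and 52.6 CPM in ZEB1_KO, against 137.4 and 89.9 CPM in ZEB1_control, and 63.1, 81.1 and 30.8 CPM in ZEB2_KO, against 99.2, 165.8 and 229.3 CPM in ZEB2_control. The Col1a2 values overlapped within the ZEB1 line. Of the 27 collagens, 0 had an unadjusted edgeR p under 0.05 in the ZEB1 line and 22 in the ZEB2 line. Of 39 other matrix genes 35 were lower (medians -0.53, -0.41 and -0.57), with 16 called by DESeq2, 0 by edgeR, and 27 of 38 lower in every fit. Of these 39, 9 had an unadjusted edgeR p under 0.05 in the ZEB1 line and 25 in the ZEB2 line. Sparcl1, a matrix glycoprotein, was among them (-0.55, SE 0.13).

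Markers of some other cells in the muscle were lower too. All 16 Schwann cell markers were lower in both lines, with a median of -0.55, and 9 were so in every fit, against 12% of all genes. Their ZEB1 median of -0.34 was -0.05 without ZEB1_control 3. Their sum was 372.0, 306.1 and 125.0 CPM in ZEB1_KO, against 283.7 and 443.4 CPM in ZEB1_control, and 308.4, 192.3 and 204.2 CPM in ZEB2_KO, against 558.8, 284.7 and 367.0 CPM in ZEB2_control. These groups overlapped, and neither edgeR nor DESeq2 called a member. Of 21 macrophage markers 20 were lower (median -0.39) and none was called. In every fit 12 were lower in both lines, against the same 12% of all genes. Their ZEB1 median of -0.29 was -0.09 without ZEB1_KO 3 and -0.45 without ZEB1_KO 2. Csf1r, the receptor of the macrophage growth factor, had 15.2, 21.7 and 14.3 CPM in ZEB1_KO, against 23.5 and 20.4 CPM in ZEB1_control, and 12.3, 12.6 and 9.23 CPM in ZEB2_KO, against 19, 13.7 and 16.6 CPM in ZEB2_control. Endothelial markers stayed closer to the background, with 15 of 21 lower and a median of -0.12. In every fit 4 were lower in both lines (19%, against 12% of all genes). Smooth muscle and pericyte markers were lower for 15 of 16 on average (median -0.26), but 10 of the 16 were higher in the ZEB1 line, where the median was 0.03 and turned to -0.03 with library totals. The 5 neutrophil markers tested had medians of 0.02 on average, 0.36 in the ZEB1 line and -0.25 in the ZEB2 line, and the average turned to -0.08 with library totals. Whether the share of these cells in the dissected muscle differed was not tested.

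**Figure D4:**
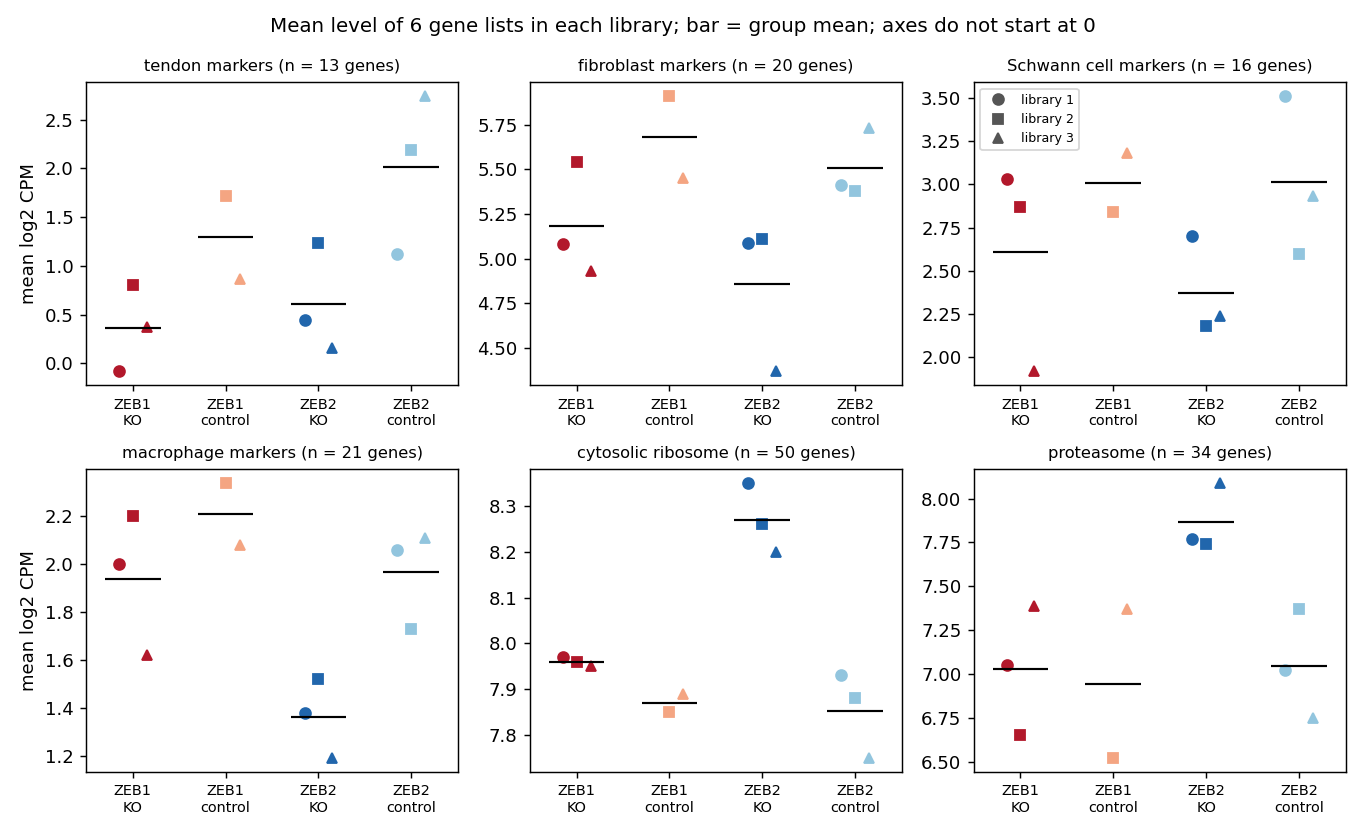
Mean log2 CPM of the tested members of 6 gene lists in each library, with KO left of control in each line and bars at group means. Tendon and fibroblast markers have lower group means in the knockouts of both lines, cytosolic ribosomal genes lie at 7.95 or above in all 6 knockout libraries and at 7.93 or below in all 5 controls, and proteasome genes spread from 6.52 to 7.37 between the 2 ZEB1_control libraries.

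Genes of the ribosome were higher by a small amount in both lines, and mainly in the ZEB2 line. All 50 cytosolic ribosomal genes tested were higher on average, with medians of 0.28 on average, 0.10 in the ZEB1 line and 0.43 in the ZEB2 line. DESeq2 called 14 of them, against 1.1% of all genes called higher, and edgeR 0. In the ZEB1 line 0 of the 50 had an unadjusted edgeR p under 0.05, against 3.24% of all genes. In the ZEB2 line 46 did, against 33.2% of all genes. In every fit 33 of the 50 were higher in both lines, against 10.1% of all genes. Their mean log2 CPM was 7.97, 7.96 and 7.95 in ZEB1_KO, against 7.85 and 7.89 in ZEB1_control, and 8.35, 8.26 and 8.20 in ZEB2_KO, against 7.93, 7.88 and 7.75 in ZEB2_control. Without ZEB1_control 2 the ZEB1 median was 0.06, with 38 of 50 higher in both lines. The 6 knockout libraries all lay above the 5 controls, with 7.95 as the lowest knockout value and 7.93 as the highest control value. Rpl10a, of the large subunit, had 229.3, 231.2 and 229.2 CPM in ZEB1_KO, against 201.1 and 211.2 CPM in ZEB1_control, and 335.1, 305.3 and 285.1 CPM in ZEB2_KO, against 221.7, 218.2 and 192.8 CPM in ZEB2_control. The effect on it differed between the lines at an unadjusted p of 0.0474, being 0.16 (SE 0.13) in the ZEB1 line and 0.55 (SE 0.12) in the ZEB2 line. In the ZEB1 line the number of higher members fell with other scaling, to 37 of 50 and a median of 0.04 with library totals, against 47 of 50 with TMM. Ribosomal genes have many processed copies in the genome, so their estimated counts are uncertain.

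Translation factors were higher for 30 of 33 on average, with medians of 0.31, 0.15 and 0.43. DESeq2 called 2, against 1.1% of all genes called higher, and edgeR called 0. An unadjusted edgeR p under 0.05 was seen for 0 of the 33 in the ZEB1 line and 25 in the ZEB2 line. Over all genes these shares were 3.24% and 33.2%. The ZEB1 median was 0.003 without ZEB1_control 2, where 18 of 33 members had opposite signs in the lines, and 0.29 without ZEB1_control 3. In both lines and every fit, 15 of 33 were higher, against 10.1% of all genes. Eef2, the elongation factor that moves the ribosome along the message, had 1488, 1342 and 1415 CPM in ZEB1_KO, against 1149 and 1205 CPM in ZEB1_control, and 1540, 1477 and 1876 CPM in ZEB2_KO, against 1369, 1147 and 971.1 CPM in ZEB2_control. Its groups did not overlap within the lines, and its log2 fold change was 0.39 (SE 0.11).

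Genes of protein breakdown were higher on average but not evenly in both lines. All 34 proteasome genes were higher on average, with a median of 0.49, yet the median was 0.06 in the ZEB1 line and 0.79 in the ZEB2 line, and edgeR and DESeq2 called 0 of them. No proteasome gene had the same sign in both lines in every fit. Without ZEB1_control 2 the median in the ZEB1 line was -0.29 and all 34 genes had opposite signs in the lines, and without ZEB1_control 3 it was 0.53. Psma6, a subunit of the core particle, had 175.5, 120.0 and 185.9 CPM in ZEB1_KO, against 106.0 and 173.8 CPM in ZEB1_control, and 235.2, 220.5 and 261.1 CPM in ZEB2_KO, against 142.8, 169.3 and 112.5 CPM in ZEB2_control. The ZEB1 groups overlapped across most of their range, whereas the ZEB2 groups were apart.

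Glucocorticoid response genes (16 of 19 higher, medians 0.73, 0.03 and 1.25), FoxO factors and targets (16 of 20, medians 0.47, -0.04 and 0.89) and autophagy genes (24 of 25, medians 0.38, 0.09 and 0.54) showed the same inequality between the lines, with 0 called by edgeR. DESeq2 called 1 lower FoxO gene, Sesn3 (-0.76, SE 0.21), an inhibitor of growth signalling, against 1.72% of all genes called lower. Over the fits that each leave out 1 library, the ZEB1 median ran from -0.60 to 1.08 for the glucocorticoid list, from -0.42 to 0.52 for the FoxO list and from -0.16 to 0.36 for autophagy, each lowest without ZEB1_control 2 and highest without ZEB1_control 3. Foxo1 had 148.5, 67.1 and 76.9 CPM in ZEB1_KO, against 31.6 and 130.9 CPM in ZEB1_control, and 140.8, 167.0 and 257.3 CPM in ZEB2_KO, against 44.7, 77.8 and 38.1 CPM in ZEB2_control. Atrophy ubiquitin genes were higher for 21 of 26 (medians 0.30, 0.13 and 0.34). In every fit 8 were higher in both lines, against 10.1% of all genes. The ZEB1 median of this list was 0.02 without ZEB1_control 2, where 17 of 26 members had opposite signs in the lines, and 0.40 without ZEB1_control 3. Ube2b, a ubiquitin-conjugating enzyme, was the only member called by DESeq2, against 1.1% of all genes called higher. It stood at 602.3, 536.2 and 591.0 CPM in ZEB1_KO, against 498.7 and 501.8 CPM in ZEB1_control, and 650.7, 578.9 and 558.1 CPM in ZEB2_KO, against 471.6, 505.5 and 424.7 CPM in ZEB2_control. It was apart in all 11 libraries (0.29, SE 0.09). Trim63 and Fbxo32, the best-known ligases of this list, named here outside the rule for named genes, had log2 fold changes of 0.04 and 0.19 in the ZEB1 line and 1.476 and 1.201 in the ZEB2 line. Their ZEB1-line values were -0.77 and -0.46 without ZEB1_control 2, and 1.86 and 1.30 without ZEB1_control 3.

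**Figure D5:**
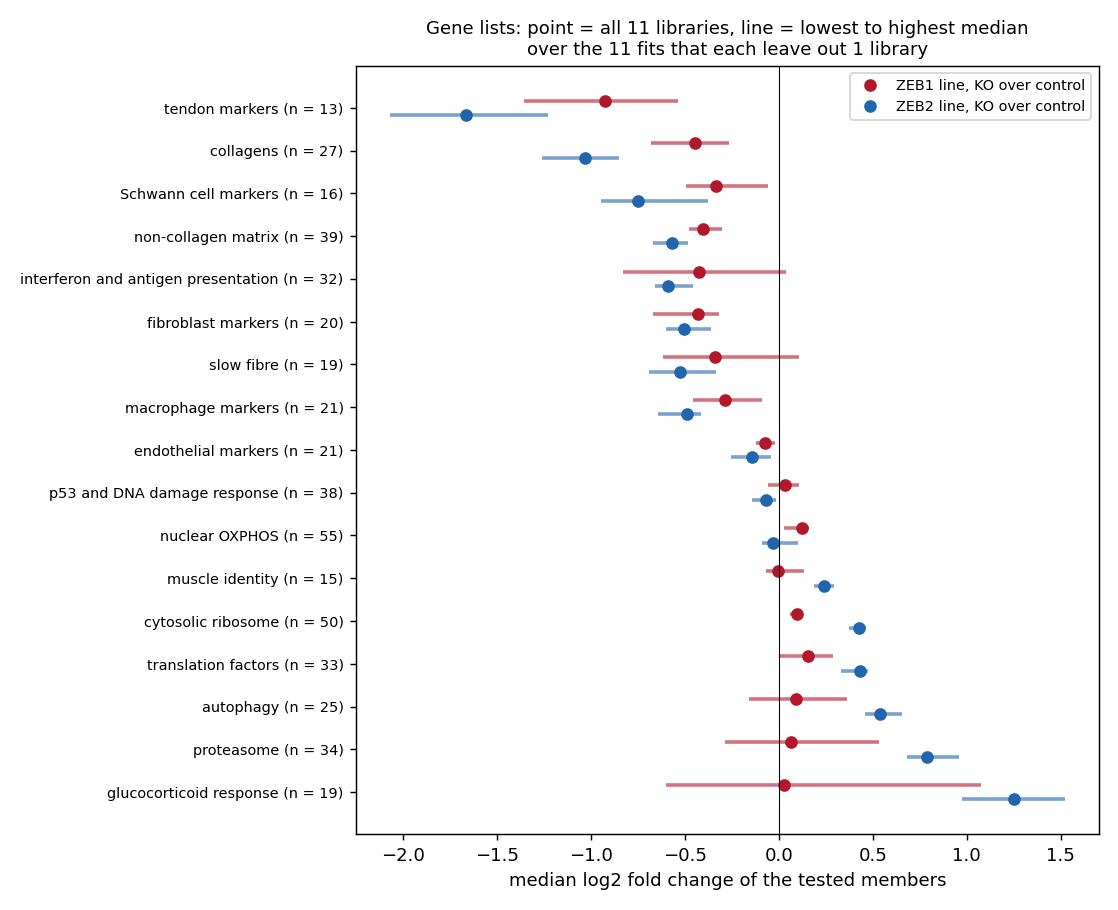
Points give the median log2 fold change (KO over control) of the tested members of 17 gene lists, for the ZEB1 line (red) and the ZEB2 line (blue), and lines span the lowest to the highest median over the 11 fits that each leave out 1 library. Tendon, collagen, matrix, fibroblast, Schwann and macrophage lists stay below 0 in both lines, and the ZEB1 range crosses 0 for proteasome, autophagy, glucocorticoid, slow fibre and interferon genes.

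Genes of p53 and DNA damage were balanced. Cre can nick DNA at other sites and set off this response in other cells, and whether it did so here was not tested. Of 38 tested, 19 were higher and 19 lower, with medians of 0.00, 0.03 and -0.07, and edgeR called 0 and DESeq2 1, the lower gene Plk2, against 2.82% of all genes called by DESeq2. In every fit 3 of 35 were higher and 3 lower in both lines, against 10.1% and 12% of all genes. Gadd45b, a stress gene, had 43.5, 26.6 and 21.2 CPM in ZEB1_KO, against 22.8 and 27.9 CPM in ZEB1_control, and 39.9, 36.2 and 42.4 CPM in ZEB2_KO, against 26.5, 25.4 and 17 CPM in ZEB2_control.

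Interferon and slow-fibre genes were lower in both lines with all libraries, but not without ZEB1_control 2. Of 32 interferon and antigen presentation genes 30 were lower, with medians of -0.48, -0.42 and -0.59. DESeq2 called 5, against 1.72% of all genes called lower. The ZEB1 median was 0.04 without ZEB1_control 2 and -0.83 without ZEB1_control 3. In every fit 13 of 32 were lower in both lines, against 12% of all genes. Ifit2, an interferon-induced RNA-binding protein, had 4.87, 4.99 and 4.53 CPM in ZEB1_KO, against 8.15 and 6.68 CPM in ZEB1_control, and 3.37, 3.08 and 3.97 CPM in ZEB2_KO, against 5.07, 4.35 and 6.35 CPM in ZEB2_control. It was apart within each line (-0.61, SE 0.13). Slow-fibre genes were lower for 16 of 19, with medians of -0.44, -0.34 and -0.53, and a ZEB1 median of 0.11 without ZEB1_control 2. DESeq2 called 2 of them, against the same 1.72%. Casq2, the slow-fibre and cardiac form of the calcium store protein calsequestrin, had 14.5, 40.4 and 46.2 CPM in ZEB1_KO, against 58.7 and 55.8 CPM in ZEB1_control, and 27.1, 45.6 and 15.2 CPM in ZEB2_KO, against 76.1, 80.3 and 114.6 CPM in ZEB2_control. No knockout library reached a control (-1.25, SE 0.34).

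Nuclear OXPHOS genes had a median of 0.04 on average, with 36 of 55 higher, but the lines differed. In the ZEB1 line 54 of 55 were higher (median 0.12), and in the ZEB2 line 26 of 55 (median -0.03). Signs were opposite in 30 of 55. In every fit 12 were higher in both lines and 0 lower, against 10.1% and 12% of all genes. Genes of the mitochondrial genome, which took 14.1% ± 1.01 of counts in ZEB1_KO (SD, n = 3), 14.6% ± 0.778 in ZEB1_control (n = 2), 13.9% ± 1.56 in ZEB2_KO (n = 3) and 17% ± 1 in ZEB2_control (n = 3), were lower for 11 of 13, with a median of -0.12 and no call by either tool. The average OXPHOS median turned to -0.04 with upper-quartile factors and to -0.05 with library totals.

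Some genes differed in opposite ways in the lines. The 5 genes with the smallest p for a larger effect in the ZEB1 line were Cdc42bpg, Noct, Spint2, Myh10 and Nes, and the 5 in the other direction were Zeb1, Tspan5, Eif4ebp3, Ndor1 and Gtf2b, none of which passed the test. Cdc42bpg, a kinase downstream of the GTPase Cdc42, had 15.2, 16.9 and 13.8 CPM in ZEB1_KO, against 6.34 and 5.84 CPM in ZEB1_control, and 5.11, 4.07 and 4.79 CPM in ZEB2_KO, against 6.18, 5.67 and 6.86 CPM in ZEB2_control. It was above its controls in the ZEB1 line and below them in the ZEB2 line, with an average of 0.33 (SE 0.29) for Cdc42bpg. Myh10, nonmuscle myosin, likewise had 0.43 (SE 0.18) in the ZEB1 line and -0.75 (SE 0.16) in the ZEB2 line, and Tspan5, a tetraspanin, -0.54 (SE 0.22) and 0.83 (SE 0.19).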

How the data were processed

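RNA-seq was done on 11 pools of mouse gastrocnemius, from Trizol RNA and stranded mRNA libraries per the labels. The authors deposited 1 table of estimated counts, already rounded and without scaling. The submitters' processing notes name STAR, RSEM, DESeq2 and GRCm38. Versions, annotation and strand setting are not given in these notes or the labels. Near-identical, overlapping or antisense genes are therefore uncertain.

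Genes were kept with filterByExpr (minimum count 10, minimum total 15) in edgeR 4.0.16 under R 4.3.3, which left 15416 of 55385. Libraries, of 27286288 to 46259639 counts, were scaled by TMM. A robust quasi-likelihood fit with line and knockout as terms gave the average effect, and a fit of 4 group means gave each line and their difference. P-values were adjusted by Benjamini-Hochberg over all genes (threshold 0.05), and the biological coefficient of variation was 0.254. Each SE was derived from the fold change and its F statistic. The fit with line and knockout as terms was tested on simulated data, and the fit of 4 group means was not. Coordinates are those of GENCODE M21, in which 54487 identifiers matched with their version.

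The members and the 51 gene lists were chosen with earlier results of these data known, so lists are described by counts and medians only. The rule for named genes took Zeb1 and Zeb2, the 15 genes per direction with the smallest p in the average effect (same sign in both lines, mean of at least 1 CPM, no unnamed models), up to 3 members of each list and up to 5 genes per direction for the difference between lines. Not all are printed, and Trim63, Fbxo32, Dcn, Cdh1, Cilp2, Comp, Chad and Tnmd lie outside it and were chosen after their values were seen. Alternatives were DESeq2 1.42.0, limma-voom (limma 3.58.1) with and without quality weights, 3 other scalings, other filters, other covariates, the replicate block and omission of each library.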

Additional observations from a re-analysis of the deposited data

Results flagged for a closer look

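Among the 6 knockout and the 5 control libraries, Zeb1, Zeb2 and the 30 genes with the smallest p were searched for a library far from the others on the log2 scale, 64 groups in all. Chance gives such a flag in about 1 of 20 groups, and 3 were found. Krt18 stood at 0.74 CPM in ZEB1_KO 2, below the next knockout library at 1.79 CPM. Slc5a3 stood at 1.58 CPM in ZEB2_KO 3, with the next knockout library at 2.14 CPM. Myh13 stood at 1.2 CPM in ZEB1_KO 1, with the next knockout library at 2.15 CPM.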

How the results depend on the processing

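The average effect had 0 edgeR calls with every other scaling, filter and covariate, and with limma-voom. With males per pool as a covariate, 2338 genes had an unadjusted edgeR p under 0.05, against 3440 without it. Without the line covariate 2890 did. Males were unevenly spread over the groups, so sex and knockout are partly confounded. DESeq2 called 434 genes on average, 21 in the ZEB1 line, 2587 in the ZEB2 line and 17 for the difference. With quality weights limma-voom called 3985 on average (6534 at an unadjusted p under 0.05), 1 in the ZEB1 line and 2657 in the ZEB2 line, and without weights 1 in the ZEB1 line. The weights were 2.71 for ZEB1_control 2 and 0.354 for ZEB1_control 3. Without a low-count filter edgeR called 6 genes in the ZEB1 line, 348 in the ZEB2 line and 2 for the difference. The cause was not tested. Over the omissions of 1 library, average calls ran from 0 to 2599, unadjusted ones from 1873 to 6084, ZEB1-line calls from 0 to 5, difference calls from 0 to 3, genes with the same sign from 25 to 514, those with opposite signs from 8 to 204, and genes without overlap from 687 to 3914. The sign turned for Zeb1 (0.037 with quality weights, 0.039 without the line covariate), Ndor1 (-0.062 with upper-quartile factors, -0.067 with library totals, -0.037 with equal weight per line, -0.009 without the line covariate, -0.101 with males as a covariate) and Igkc (-0.106 with males as a covariate). Over omissions Zeb1 ran from -0.13 to 0.16, Noct from -0.05 to 0.30, Ndor1 from -0.15 to 0.24 and Igkc from -0.13 to 0.52. Depth, at 27286288 counts or more, limits mainly the epithelial, neutrophil and lymphocyte lists, whose untested members had too few counts.

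Same-numbered knockout and control libraries deviated together with correlations from -0.313 to 0.465. Whether the replicate numbers pair the samples could not be settled, since libraries with unlike numbers were not compared in this way. The ZEB1 controls are numbered 2 and 3 in the titles, which were used here, and 1 and 2 in the source names, so the numbering of that line is uncertain. With a replicate block edgeR called 0 genes, with 2471 at an unadjusted p under 0.05 and a smallest adjusted p of 0.309, and Zeb1 turned to 0.048.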
